A study of Homo sapiens with 12 samples.

Results

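The lysosomal hydrolases and the proton pump of the lysosome were followed as 34 genes, taken from a written list of lysosomal enzyme, membrane and vacuolar ATPase (V-ATPase) genes and matched by symbol to the 47634 gene IDs listed in the count data. All 34 genes were matched, each to 1 ID. By role they comprise 8 V-ATPase genes, 5 membrane proteins, 9 proteases, 8 glycosidases and sulfatase, and 4 genes of lipid handling. The data are 12 QuantSeq libraries of HepG2, a human hepatocellular carcinoma line, with 3 libraries in each of 4 groups: ATP7B KO cells given copper for 24 h, untreated ATP7B KO cells, wild type cells given copper for 24 h, and untreated wild type cells. ATP7B is the copper-exporting ATPase of hepatocytes that is defective in Wilson disease, and the study asked about autophagy in that setting. The labels call the libraries of a group biological replicates. They give neither the copper dose nor the copper salt, and do not say how ATP7B was disrupted or whether the KO cells came from a single clone. No allele or agent is named that all 4 groups share.

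Lysosomes are the acidic compartments in which cells break down material delivered by endocytosis and autophagy. Their lumen is acidified by the V-ATPase, a rotary pump whose cytosolic V1 sector splits ATP and whose membrane V0 sector carries the protons. Soluble acid hydrolases then cut proteins, glycans and lipids, while membrane proteins line the compartment, move ions and export cholesterol. Many of these genes carry a CLEAR element, an extended E-box that is bound by TFEB and its relatives TFE3 and MITF. In hepatocytes, lysosomes also take up excess copper and pass it towards bile.

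Values are given as CPM, the count of a gene divided by all counts of its library and scaled to 1000000. QuantSeq reads come from the 3′ end of each transcript, about 1 per molecule, so CPM needs no correction for length. Libraries held 976658 to 3829151 counts. A count of 0 allows up to 3 counts, or 0.783 CPM in the deepest library and 3.07 CPM in the shallowest, and these limits cover counting error only. Mitochondrial transcripts made up 8.34% to 9.46% of the counts in KO copper libraries, 5.82% to 8.85% in KO untreated libraries, 6.58% to 8.59% in wild type copper libraries and 2.97% to 3.80% in wild type untreated libraries. In log2 CPM over all tested genes, ATP7B KO untreated replicates 1 and 2 correlated with each other at 0.93, and with replicate 3 at 0.82 and 0.80. By this measure replicate 3 is the one that differs from both others, and the data of this group alone do not say which libraries are typical. Wild type copper replicate 1 correlated at 0.94 and 0.91 with replicates 2 and 3, which correlated with each other at 0.97, and pairs in the other groups at 0.98 to 0.99. Results are also given without 3 libraries together, KO untreated replicates 1 and 2, which were the shallowest, and wild type copper replicate 1. These are called the set-aside libraries below. They were chosen with earlier results of these data known, and the correlations alone do not single out KO untreated replicates 1 and 2. The fit without KO untreated replicate 3 is the opposite choice. ATP7B itself was at 3.92, 4.19 and 6.77 CPM in KO copper libraries 1 to 3 and at 9.01, 2.05 and 11.6 CPM in KO untreated libraries 1 to 3. Wild type copper libraries had 5.34, 3.92 and 3.87 CPM of it, and wild type untreated libraries 12.7, 13.1 and 12.4 CPM. Reads from the 3′ end do not check an edit elsewhere in the gene, and KO against wild type was not called for it in either treatment (adjusted p = 0.86 in copper and 0.15 untreated). All 9 hepatocyte markers had counts in all 12 libraries. Their summed level was 3740 to 3954 CPM in KO copper libraries, 8733 to 10463 CPM in KO untreated libraries, 8567 to 9487 CPM in wild type copper libraries and 18243 to 19036 CPM in wild type untreated libraries. Its part in the lysosomal results was not tested. Of the macrophage markers, MARCO, C1QA and CD5L were at 0 in all libraries, as were the endothelial markers KDR, STAB2 and CLEC4G. The stellate or fibroblast list and the endothelial list summed to at most 106 and 10.2 CPM in any library. The macrophage list summed to 179 to 215 CPM in KO copper libraries, 195 to 422 CPM in KO untreated libraries, 265 to 833 CPM in wild type copper libraries and 1333 to 1455 CPM in wild type untreated libraries, and LYZ made up nearly all of it in each.

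Levels ran over several orders of magnitude. PSAP, the precursor of the saposins that help enzymes reach sphingolipids, was the most abundant at a mean of 945 CPM over the 12 libraries. The aspartic protease CTSD followed at 687 CPM, the serine carboxypeptidase CTSA at 622 CPM and the membrane glycoprotein LAMP1 at 444 CPM, and these 4 genes held 60.8% of the summed CPM of all members. At the other end, NEU1 had 5 counts and CTSF 3 counts in all 12 libraries together, and CTSS, a cysteine protease, had 57. These 3 genes did not pass the filter on low counts, which left 31 genes in the tests. NEU1 stands among genes that are listed low as a block: of the 40 nearest protein-coding genes listed on chromosome 6, 23 had 0 counts in every library and 29 had at most 5, so nothing is said of its expression. CTSS had 22 counts in KO copper libraries and 24 in KO untreated libraries, against 3 in wild type copper libraries and 8 in wild type untreated libraries.

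Summed over all 34 genes, the level was 5179 ± 189 CPM in KO copper libraries (SD, n = 3) and 4092 ± 526 CPM in KO untreated libraries. It was 4418 ± 546 CPM in wild type copper libraries and 4066 ± 45.7 CPM in wild type untreated libraries. The V-ATPase genes summed to 846, 830.2 and 806 CPM in KO copper libraries and to 341, 260.1 and 553 CPM in KO untreated libraries. They summed to 492, 504 and 522 CPM in wild type copper libraries and to 461, 504 and 469 CPM in wild type untreated libraries. Each KO copper library was thus above the other 9, with no overlap. The spread between libraries of a group differed widely: the median coefficient of variation over the 31 tested genes was 7.45% in KO copper, 42.1% in KO untreated, 27.5% in wild type copper and 6.87% in wild type untreated libraries. In KO untreated cells, replicate 3 was above both other replicates for 21 of the 31 genes and below both for 5. This order was not counted over all tested genes, in which replicate 3 also differed from both others, as given above.

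Promoter sequence is shown for the 6 tested members that carry the E-box and for ATP6V1D, which does not, because TFEB and TFE3, which bind it, were also measured. RefSeq windows from 250 bases before to 50 bases after an annotated start (GRCh38.p14) were at hand for 20 of the 34 genes. On either strand, the palindrome CACGTG was in the windows of 8 of these 20 genes (40.0%), against 7.26% of 35116 windows of all genes. Here and below, the shares of members count genes, which had 23 windows, and the shares of all genes count single windows. The longer TCACGTGA, each copy of which contains a CACGTG, was in the windows of LAMP1, CTSA, GAA and ATP6V0D1 (20% of the 20), against 0.98% of all windows. The 10-base form, with a further G in front and a further C behind, was in that of GAA alone (5.0%), against 0.353% of all windows. LAMP1 had 6 copies of CACGTG, of which 5 lie in the stretch below and the sixth runs across the start, GAA, CTSA, CLCN7 and CTSF had 2 each, and CTSD, ATP6V0D1 and NEU1 had 1 each. CTSF and NEU1, which were not tested, are not printed. In the sequences below, read 5′ to 3′ on the gene's strand and ending at the base before the start, capitals mark CACGTG. The LAMP1 stretch lies at chr13:113296989-113297238 (+), that of CTSA at chr20:45891235-45891334 (+), that of CLCN7 at chr16:1475029-1475128 (-) and that of ATP6V0D1 at chr16:67481158-67481257 (-). The CTSD stretch lies at chr11:1763928-1764027 (-), that of GAA at chr17:80101481-80101580 (+) and that of ATP6V1D at chr14:67359805-67359904 (-).
LAMP1: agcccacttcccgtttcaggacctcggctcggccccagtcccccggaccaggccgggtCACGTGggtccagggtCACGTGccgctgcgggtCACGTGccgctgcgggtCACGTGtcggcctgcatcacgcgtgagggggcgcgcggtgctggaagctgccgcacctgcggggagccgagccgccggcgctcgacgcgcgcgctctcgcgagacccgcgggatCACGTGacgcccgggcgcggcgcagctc
CTSA: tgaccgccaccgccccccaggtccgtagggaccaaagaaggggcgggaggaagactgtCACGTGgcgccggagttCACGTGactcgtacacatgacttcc
CLCN7: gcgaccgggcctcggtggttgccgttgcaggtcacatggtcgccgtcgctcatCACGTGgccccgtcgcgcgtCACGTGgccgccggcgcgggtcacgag
ATP6V0D1: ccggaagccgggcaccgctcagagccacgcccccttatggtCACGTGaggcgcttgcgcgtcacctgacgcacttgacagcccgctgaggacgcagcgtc
CTSD: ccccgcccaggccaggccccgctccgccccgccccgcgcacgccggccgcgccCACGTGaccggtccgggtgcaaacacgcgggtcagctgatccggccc
GAA: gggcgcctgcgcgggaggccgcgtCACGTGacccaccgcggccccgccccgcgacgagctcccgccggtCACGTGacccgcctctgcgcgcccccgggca
ATP6V1D: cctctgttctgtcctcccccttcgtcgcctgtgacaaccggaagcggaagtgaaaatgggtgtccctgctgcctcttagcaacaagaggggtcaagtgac

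**Figure D1:**
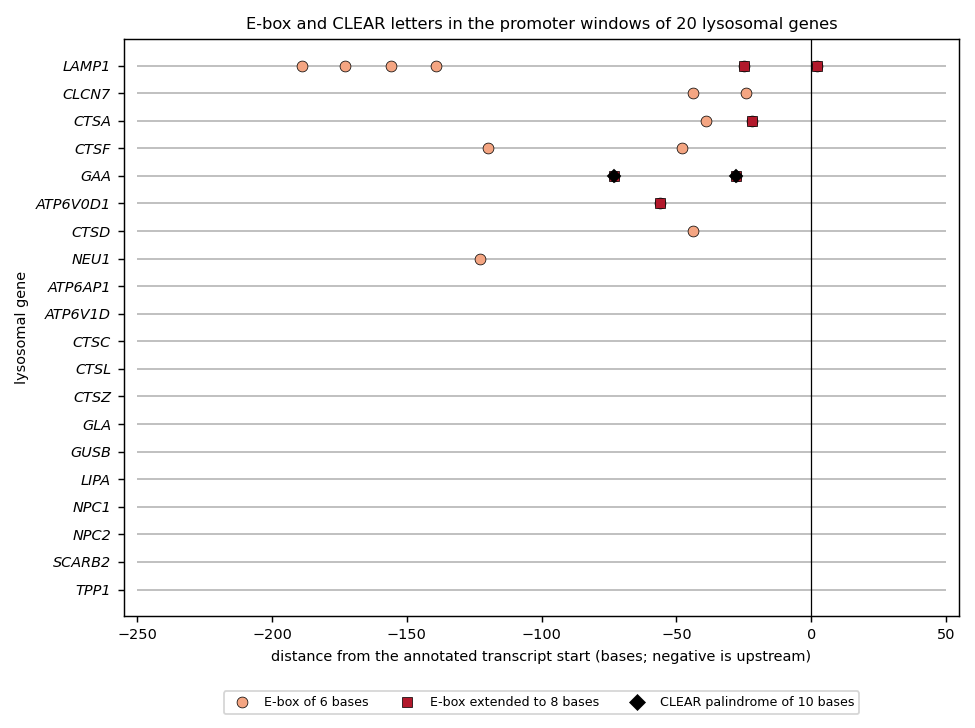
Position of E-box letters in the promoter windows of the 20 lysosomal genes with a RefSeq window, as distance in bases from the annotated start. Circles mark CACGTG, squares its 8-base extension and diamonds the 10-base palindrome; 8 genes hold at least 1 site, and 12 genes, among them GLA, CTSL and ATP6V1D, hold none.

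The first comparison asked how copper changed these genes in ATP7B KO cells. In KO cells given copper, 12 of the 31 tested genes rose and 2 fell, against 15.2% of all 11051 tested genes called higher and 18.5% called lower. The median log2 fold change was 0.67 for the 31 genes and 0.01 for all genes tested. The genes that rose were 6 of the 8 V-ATPase genes, the membrane proteins LAMP1 and CLCN7, the hydrolases CTSL, HEXA and GLA, and PSAP. The genes that fell were CTSA and NAGLU. The copper and untreated libraries did not overlap for 13 genes that were higher and 3 that were lower, against 19.1% and 25.1% of all tested genes. These are bulk libraries, in which a change in RNA per cell and a change in the share of cells that hold it cannot be told apart.

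The 8 V-ATPase genes had a median log2 fold change of 1.92. ATP6V1A, the catalytic subunit, was at 103, 99.2 and 101 CPM in KO copper libraries and at 9.01, 33.8 and 46.1 CPM in KO untreated libraries. The groups did not overlap, and the difference was 3.67-fold (log2 fold change 1.87 ± 0.39 SE, adjusted p = 0.0037). ATP6V1B2, which pairs with it in the V1 head, stood at 185, 162 and 170.4 CPM in KO copper libraries and 11.8, 24.6 and 95.2 CPM in KO untreated libraries. All copper libraries exceeded the untreated ones, of which replicate 3 was well above the other two (log2 fold change 2.07 ± 0.59 SE, adjusted p = 0.019). ATP6V1D, part of the central stalk that turns the rotor, was at 76.9, 78.3 and 68.1 CPM in KO copper libraries and 19.4, 9.22 and 22.9 CPM in KO untreated libraries, a 4.54-fold difference (log2 fold change 2.18 ± 0.30 SE, adjusted p = 0.00034). ATP6V1C1, a stator subunit whose contact with the V1 head governs sector assembly, was at 45.9, 46.1 and 47.8 CPM in KO copper libraries and 13.9, 14.3 and 29.6 CPM in KO untreated libraries (log2 fold change 1.34 ± 0.25 SE, adjusted p = 0.0021). Its copper libraries lay close together, and untreated replicate 3 was the highest of its group. ATP6V1H, a stator subunit needed for pump activity, was at 31.7, 20.5 and 27.1 CPM in KO copper libraries and 0, 2.05 and 10.1 CPM in KO untreated libraries (log2 fold change 2.50 ± 0.61 SE, adjusted p = 0.0082). Its untreated level rests on 0, 2 and 33 counts.

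The V0 genes and an accessory gene complete the pump. ATP6V0E1, a small membrane subunit, stood at 136, 121 and 119.8 CPM in KO copper libraries and 13.2, 4.10 and 82.1 CPM in KO untreated libraries (log2 fold change 1.97 ± 0.67 SE, adjusted p = 0.040). Untreated replicates 1 and 2 were far below replicate 3 for this gene. ATP6V0D1, which couples the stalk to the membrane ring, was at 100.4, 122 and 103 CPM in KO copper libraries and 94.9, 62.5 and 68.7 CPM in KO untreated libraries. Its groups did not overlap, but it was not called (log2 fold change 0.64 ± 0.25 SE, adjusted p = 0.067). ATP6AP1, an accessory subunit needed for pump assembly, was at 168, 181 and 169 CPM in KO copper libraries and 179, 109.6 and 199 CPM in KO untreated libraries, which overlapped (log2 fold change 0.21 ± 0.24 SE, adjusted p = 0.52). For 7 of the 8 genes, all except ATP6AP1, each KO copper library was above each of the other 9 libraries. This order held for 11 of the 31 tested members, these 7 among them. Its share over all tested genes was not counted, so it is not shown to be particular to the pump.

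In KO cells, 7 of the 8 V-ATPase genes rose with copper without the 3 set-aside libraries, ATP6V0D1 among them with a larger log2 fold change of 0.84, in a fit that called 39.6% of all tested genes. Those of the other 6 were smaller, at 1.31 for ATP6V1A, 1.04 for ATP6V1B2, 1.88 for ATP6V1D, 0.83 for ATP6V1C1, 1.57 for ATP6V1H and 0.79 for ATP6V0E1, and the adjusted p of the 7 genes lay between 3.6e-09 and 0.0012. Without KO untreated replicate 3 alone, when 58.1% of all tested genes were called, the values were larger, at 3.77 for ATP6V0E1, 3.34 for ATP6V1B2 and 4.94 for ATP6V1H. In the fit without the 3 libraries only KO untreated replicate 3 stands for its group, and it is assumed to vary like the other groups. ATP6V1A, ATP6V1C1, ATP6V1D and ATP6V1H were called in all 12 fits that left out 1 library. The call of ATP6V1B2 ended without KO copper replicate 1 or KO untreated replicate 2 (adjusted p up to 0.062). That of ATP6V0E1 ended without any one of the KO copper or wild type untreated libraries, KO untreated replicate 1 or 2, or wild type copper replicate 2 (adjusted p up to 0.12). Fitted on the 6 KO libraries alone, the calls of ATP6V1B2 (adjusted p = 0.063), ATP6V1H (0.062) and ATP6V0E1 (0.12) ended.

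**Figure D2:**
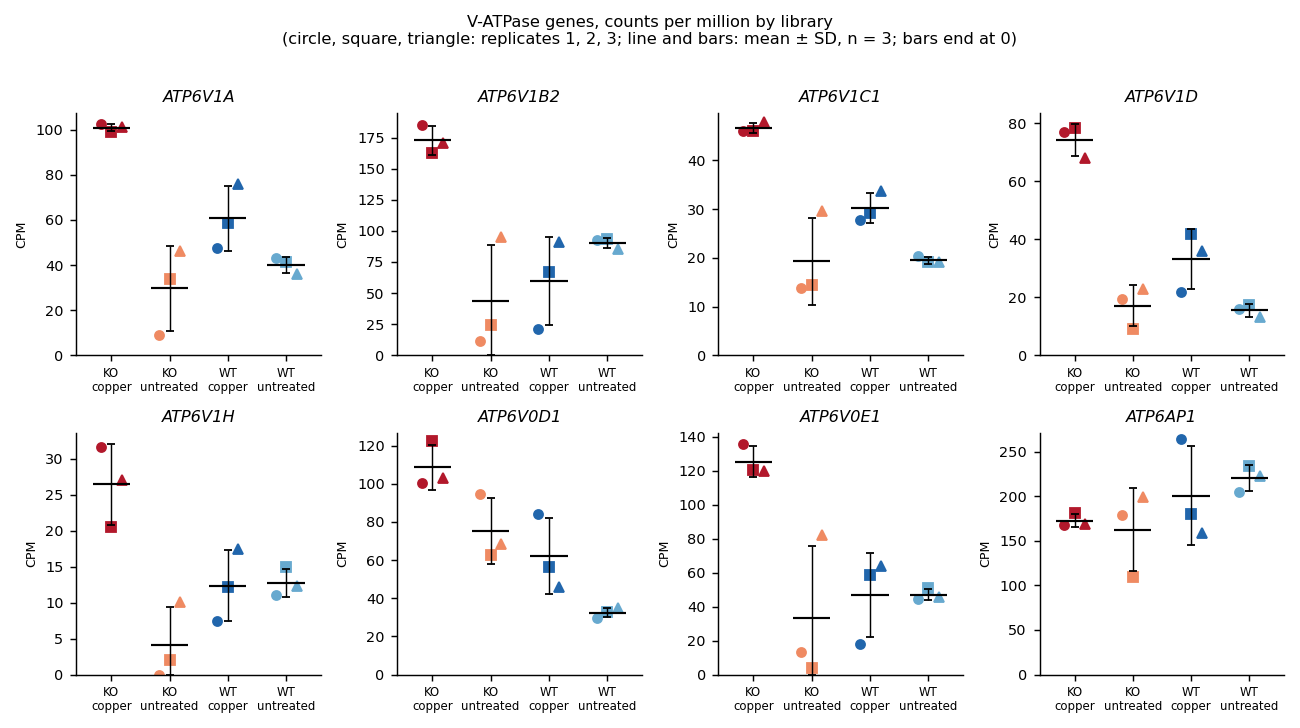
CPM of the 8 V-ATPase genes in each of the 12 libraries, by group; symbols are libraries, and the line with bars is the mean ± SD of 3. Except for ATP6AP1, the KO copper libraries lie above all others, for example at 99.2 to 103 CPM for ATP6V1A; KO untreated replicate 3 (triangle) lies above replicates 1 and 2 for most genes.

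Among the membrane proteins, LAMP1, a heavily glycosylated protein that lines the lysosomal membrane, was at 719, 684 and 637 CPM in KO copper libraries and at 220.3, 226 and 593 CPM in KO untreated libraries. Copper libraries were all above the untreated ones, but by little against replicate 3 (log2 fold change 1.11 ± 0.31 SE, adjusted p = 0.016). CLCN7, the chloride-proton exchanger of lysosomes, was at 19.6, 24.3 and 30.3 CPM in KO copper libraries and 12.5, 7.17 and 14.3 CPM in KO untreated libraries (log2 fold change 1.18 ± 0.29 SE, adjusted p = 0.0092). LAMP2, SCARB2 and NPC1 were not called, with log2 fold changes of 0.87, 0.51 and 0.66. The LAMP1 call ended without KO copper replicate 1 or KO untreated replicate 1 or 2 (adjusted p up to 0.062) and on the 6 KO libraries alone (adjusted p = 0.094), and its log2 fold change was 0.38 (adjusted p = 0.0083) without the 3 set-aside libraries. The CLCN7 call stood in all 12 fits that left out 1 library. The promoters of both genes carry CACGTG, as shown above. An antisense transcript overlaps the 3′ end of CLCN7 and had 0 counts in all libraries.

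Of the 7 tested proteases, CTSL rose and CTSA fell. CTSL, a cysteine endopeptidase, was at 48.4, 45.6 and 47.4 CPM in KO copper libraries and 19.4, 20.5 and 14.6 CPM in KO untreated libraries, with no overlap and little spread in either group (log2 fold change 1.52 ± 0.25 SE, adjusted p = 0.00087). Its call stood in all 12 fits that left out 1 library, and its log2 fold change was 1.86 without the set-aside libraries. CTSA, which also protects the galactosidase and sialidase it binds, was at 597, 584 and 551 CPM in KO copper libraries and 1491, 1239 and 712 CPM in KO untreated libraries (log2 fold change -0.89 ± 0.26 SE, adjusted p = 0.022). The untreated level was set by replicates 1 and 2, which were well above replicate 3. Without the 3 set-aside libraries the log2 fold change was -0.12 (adjusted p = 0.39), and the call also ended without any one of the KO copper libraries or KO untreated replicate 1 or 2 (adjusted p up to 0.093) and on the 6 KO libraries alone (adjusted p = 0.11). CTSA overlaps the opposite-strand gene PLTP at its 3′ end. PLTP had 575 counts against 16901 for CTSA, and with the strand setting not given in the sources used here, reads of the pair cannot be told apart. CTSB, CTSC, CTSD, CTSZ and TPP1 were not called, with log2 fold changes from -0.43 for TPP1 to 2.19 for CTSZ, which had at most 6.37 CPM in KO cells.

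GLA, the alpha-galactosidase that is deficient in Fabry disease, had the largest change of the 31 genes. It was at 54.5, 48.1 and 47.4 CPM in KO copper libraries and at 0, 0 and 10.7 CPM in KO untreated libraries, where replicates 1 and 2 had 0 counts (log2 fold change 3.47 ± 0.70 SE, adjusted p = 0.0032). A count of 0 allows up to 2.08 CPM in replicate 1 and 3.07 CPM in replicate 2, and the log2 fold change was 2.40 (adjusted p = 1.7e-09) without the set-aside libraries, where untreated replicate 3 is alone in its group. Without untreated replicate 3 both remaining libraries are at 0, and the fitted value of 9.97 is no measure of size. HEXA, the alpha subunit of the hexosaminidase that is deficient in Tay-Sachs disease, was at 76.6, 81.2 and 87.6 CPM in KO copper libraries and 47.1, 32.8 and 66.8 CPM in KO untreated libraries (log2 fold change 0.85 ± 0.25 SE, adjusted p = 0.021). NAGLU, an enzyme of heparan sulfate breakdown, moved the other way, at 13.2, 11.3 and 19.1 CPM in KO copper libraries and 33.9, 21.5 and 42.4 CPM in KO untreated libraries (log2 fold change -1.07 ± 0.28 SE, adjusted p = 0.013). The groups of each of these 3 genes did not overlap. The HEXA call ended without any one of the KO copper libraries or KO untreated replicate 1 or 2 (adjusted p up to 0.073), on the 6 KO libraries alone (0.074) and with no filter on low counts (0.063), and its log2 fold change was 0.47 without the set-aside libraries. The NAGLU call ended without KO copper replicate 1 or 2 (adjusted p up to 0.061) and on the 6 KO libraries alone (0.063). Without the set-aside libraries the log2 fold change of NAGLU was larger in size, at -1.37. GUSB, GAA, SGSH and MANBA were not called. GAA and SGSH were at 0 in KO untreated replicate 2, and SGSH in replicate 1 as well, against 50.7 and 24.7 CPM in replicate 3.

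In the lipid group, PSAP was at 1252, 1189 and 1165 CPM in KO copper libraries and 646, 588 and 749 CPM in KO untreated libraries (log2 fold change 0.98 ± 0.20 SE, adjusted p = 0.0036). The groups did not overlap, and the call stood in all 12 fits that left out 1 library. ASAH1, the acid ceramidase, and NPC2, which carries cholesterol to NPC1, were not called, with log2 fold changes of 0.07 and 0.11. LIPA, the acid lipase that frees cholesterol from its esters, was at 12.8, 14.7 and 8.76 CPM in KO copper libraries and 4.85, 7.17 and 42.1 CPM in KO untreated libraries and was not called (log2 fold change -0.58, adjusted p = 0.45). Its direction depended on KO untreated replicate 3: the log2 fold change was 1.07 (adjusted p = 0.042) without that library and -1.62 (adjusted p = 5.8e-07) without the 3 set-aside libraries. Of the 8 genes with CACGTG in the window, LAMP1 and CLCN7 rose, CTSA fell, CTSD, GAA and ATP6V0D1 were not called, and CTSF and NEU1 were not tested. Of the genes with a window but no CACGTG in it, ATP6V1D, CTSL and GLA rose. The others, ATP6AP1, CTSC, CTSZ, GUSB, LIPA, NPC1, NPC2, SCARB2 and TPP1, were not called. Whether the motif bears on these changes was not tested.

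In wild type cells given copper, 2 of the 31 genes, ATP6V1D and ATP6V0D1, rose and 2, MANBA and LIPA, fell, against 8.23% of all tested genes called higher and 6.68% called lower, so both shares were near the background. Groups did not overlap for 10 higher and 10 lower members, against 21.3% and 27.1% of all tested genes. The median log2 fold change was -0.01 for the 31 genes and -0.03 for all genes tested. ATP6V1D was at 21.9, 41.8 and 36.0 CPM in wild type copper libraries and 15.8, 17.5 and 13.2 CPM in wild type untreated libraries (log2 fold change 1.12 ± 0.29 SE, adjusted p = 0.023). ATP6V0D1 was at 84.3, 56.6 and 45.7 CPM in wild type copper libraries and 29.8, 32.9 and 34.8 CPM in wild type untreated libraries (log2 fold change 0.96 ± 0.25 SE, adjusted p = 0.025). Neither gene's groups overlapped. MANBA, a beta-mannosidase, was at 8.01, 3.92 and 8.91 CPM in wild type copper libraries and 22.1, 23.8 and 19.7 CPM in wild type untreated libraries (log2 fold change -1.62 ± 0.32 SE, adjusted p = 0.0064). LIPA was at 8.01, 17.4 and 13.9 CPM in wild type copper libraries and 45.1, 48.1 and 49.4 CPM in wild type untreated libraries, also without overlap (log2 fold change -1.82 ± 0.55 SE, adjusted p = 0.044). Both genes were thus well below their untreated level in every copper library.

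The MANBA call in wild type cells stood in all 12 fits that left out 1 library. The call of ATP6V1D ended without wild type copper replicate 2 or 3 or any one of the wild type untreated libraries (adjusted p up to 0.11), and that of ATP6V0D1 without wild type copper replicate 1 or 2 or any one of the wild type untreated libraries (up to 0.10). The LIPA call ended without any one of the KO copper, wild type copper or wild type untreated libraries (up to 0.13). Fitted on the wild type libraries alone, 7 members were called higher and 6 lower, when 29.2% of all tested genes were called. On the KO libraries alone, copper gave 7 higher and 0 lower, when 17.9% were called. The contrast between the lines in counts of calls thus depended on which libraries shared the fit. Without the 3 set-aside libraries, 9 genes were called higher and 10 lower among 32 tested members, when 40.0% of all tested genes were called. In that fit 5 of the 8 V-ATPase genes were called higher and ATP6AP1 lower, GLA was called higher (log2 fold change 2.02, adjusted p = 4.6e-09), and 5 of 7 tested glycosidases and sulfatase genes were called lower: GUSB, GAA, NAGLU, SGSH and MANBA. In the fit of all 12 libraries these genes, other than MANBA, had log2 fold changes between -1.16 for SGSH and -0.75 for NAGLU and were not called. GLA was at 8.01, 22.2 and 27.1 CPM in wild type copper libraries and 6.33, 5.75 and 7.02 CPM in wild type untreated libraries, without overlap and not called (log2 fold change 1.62 ± 0.65 SE, adjusted p = 0.11).

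**Figure D3:**
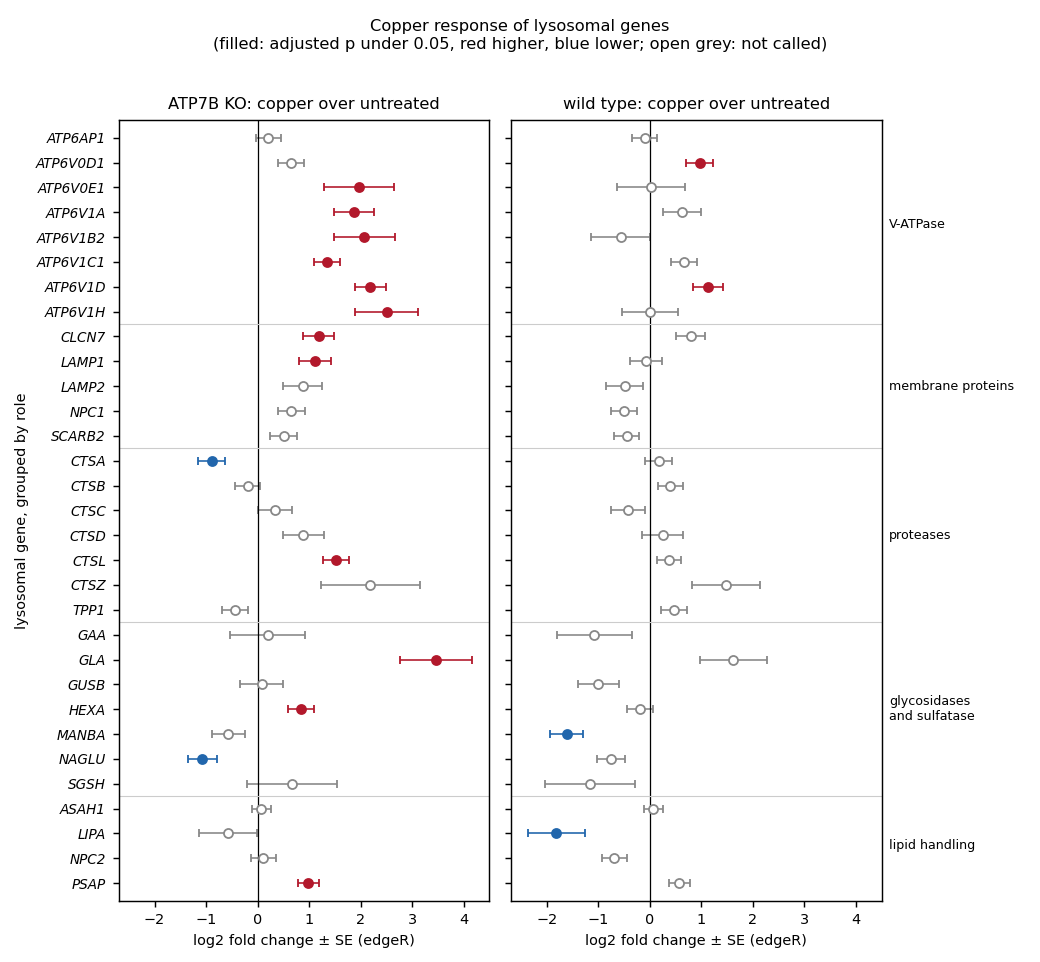
Log2 fold change of copper over untreated, with its standard error from edgeR, for the 31 tested lysosomal genes in KO cells (left) and wild type cells (right). Filled points passed an adjusted p of 0.05: 12 higher and 2 lower in KO cells, 2 higher and 2 lower in wild type cells.

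Whether copper acted differently in the KO and wild type cells was tested as the difference of their log2 fold changes. No member passed the threshold in either direction, against 4.93% of all tested genes called, 1.26% higher and 3.67% lower. The smallest adjusted p was 0.060, for CTSL (difference 1.14 ± 0.34 SE). Of the 31 genes, 14 had an unadjusted p under 0.05, against 32.6% of all tested genes. DESeq2 called 4 higher and 1 lower, when it called 16.6% of all genes, and limma voom called 0, when it called 1.26% of all genes. The median difference was 1.04 for the members and 0.02 for all genes tested. ATP6V1B2 had a difference of 2.63 ± 0.82 SE (adjusted p = 0.067), ATP6V1H one of 2.51 ± 0.81 SE (0.074) and NPC1 one of 1.16 ± 0.37 SE (0.070). The median difference was 0.34 without the 3 set-aside libraries, and 5 members were called higher. Those 5 were CTSL (1.59), ATP6V1B2 (1.16), ATP6V1H (1.29), NPC1 (1.05) and PSAP (0.45), and 8.77% of all tested genes were called in that fit. Without KO untreated replicate 3 alone, 18 members were called higher and 3 lower, when 51.5% of all tested genes were called.

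The lines were also set against each other within each treatment. The copper comparison uses the same KO copper libraries as the first comparison and the same wild type copper libraries as the second, and the untreated comparison likewise shares its libraries with them. In copper, 2 of the 31 genes were higher in KO than in wild type cells and 1 was lower, against 5.77% of all tested genes called higher and 8.03% called lower. Groups did not overlap for 14 higher and 2 lower members, against 26.4% and 20% of all tested genes. The median log2 fold change was 0.29 for the 31 genes and 0.05 for all genes tested. ATP6V1D was at 76.9, 78.3 and 68.1 CPM in KO copper libraries and 21.9, 41.8 and 36.0 CPM in wild type copper libraries (log2 fold change 1.13 ± 0.28 SE, adjusted p = 0.020). HEXA was at 76.6, 81.2 and 87.6 CPM in KO copper libraries and 30.4, 54.0 and 47.3 CPM in wild type copper libraries (log2 fold change 0.86 ± 0.25 SE, adjusted p = 0.037). NAGLU was at 13.2, 11.3 and 19.1 CPM in KO copper libraries and 34.2, 25.3 and 23.2 CPM in wild type copper libraries (log2 fold change -0.95 ± 0.28 SE, adjusted p = 0.043). The groups of these 3 genes did not overlap.

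None of the 3 calls in copper stood in all 12 fits that left out 1 library. The ATP6V1D call ended without any one of the KO copper libraries or wild type copper replicate 1 (adjusted p up to 0.082). The calls of HEXA (up to 0.12) and NAGLU (up to 0.16) ended without any one of the KO copper, wild type copper or wild type untreated libraries, and that of HEXA also with no filter on low counts (0.086). Without the 3 set-aside libraries, 13 genes were called higher and 4 lower among 32 tested members, when 37.9% of all tested genes were called. They included 7 of the 8 V-ATPase genes, all except ATP6AP1, with log2 fold changes from 0.48 for ATP6V1C1 to 1.04 for ATP6V1B2. They also included LAMP1 (0.72), GLA (0.93), CTSA (0.51) and CTSL (0.56) among the higher and SCARB2 (-0.52) and ASAH1 (-0.50) among the lower. In the fit of all 12 libraries LAMP1 was at 719, 684 and 637 CPM in KO copper libraries and 309.5, 371 and 405 CPM in wild type copper libraries, without overlap and not called (log2 fold change 0.88, adjusted p = 0.076).

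In untreated cells, 2 of the 31 genes were higher in KO than in wild type cells and 4 were lower, against 17.9% of all tested genes called higher and 14% called lower, so neither share was above that background. Groups did not overlap for 3 higher and 9 lower members, against 25.7% and 19.1% of all tested genes. The median log2 fold change was -0.56 for the 31 genes and -0.02 for all genes tested. LAMP2, a lysosomal membrane glycoprotein with a variant that imports proteins in chaperone-mediated autophagy, was at 29.1, 28.7 and 102 CPM in KO untreated libraries and 132, 138 and 127 CPM in wild type untreated libraries (log2 fold change -1.42 ± 0.37 SE, adjusted p = 0.014). SCARB2, the receptor that brings glucocerebrosidase to lysosomes, was at 22.9, 28.7 and 46.1 CPM in KO untreated libraries and 75.7, 75.5 and 79.5 CPM in wild type untreated libraries (log2 fold change -1.35 ± 0.26 SE, adjusted p = 0.0033). NPC1, the exporter of cholesterol from lysosomes, was at 17.3, 43.0 and 31.4 CPM in KO untreated libraries and 65.1, 71.6 and 74.4 CPM in wild type untreated libraries (log2 fold change -1.34 ± 0.26 SE, adjusted p = 0.0037). Every KO untreated library was below every wild type untreated library for these 3 genes. NPC2 was at 119.9, 119 and 249 CPM in KO untreated libraries and 240.2, 232 and 245 CPM in wild type untreated libraries, where replicate 3 of the KO cells was the highest of the 6 (log2 fold change -0.69 ± 0.24 SE, adjusted p = 0.046).

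CTSA and ATP6V0D1 were higher in untreated KO cells. CTSA was at 1491, 1239 and 712 CPM in KO untreated libraries and 334, 378 and 377 CPM in wild type untreated libraries (log2 fold change 1.55 ± 0.27 SE, adjusted p = 0.0019). ATP6V0D1 was at 94.9, 62.5 and 68.7 CPM in KO untreated libraries and 29.8, 32.9 and 34.8 CPM in wild type untreated libraries (log2 fold change 1.09 ± 0.26 SE, adjusted p = 0.0084). Neither gene's groups overlapped. The calls of LAMP2, SCARB2, NPC1, CTSA and ATP6V0D1 stood in all 12 fits that left out 1 library, and their log2 fold changes without the set-aside libraries were -0.58, -0.94, -1.36, 0.77 and 0.88, all called. The LAMP2 value was -2.24 without KO untreated replicate 3, and on the 6 untreated libraries alone its call ended (adjusted p = 0.081). The NPC2 call ended in 11 of the 12 fits that left out 1 library (adjusted p up to 0.16), all except that without KO untreated replicate 3, and on the 6 untreated libraries alone (0.17), with relative log expression factors (0.0503), with no filter (0.082) and without the set-aside libraries (log2 fold change -0.14, adjusted p = 0.39).

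**Figure D4:**
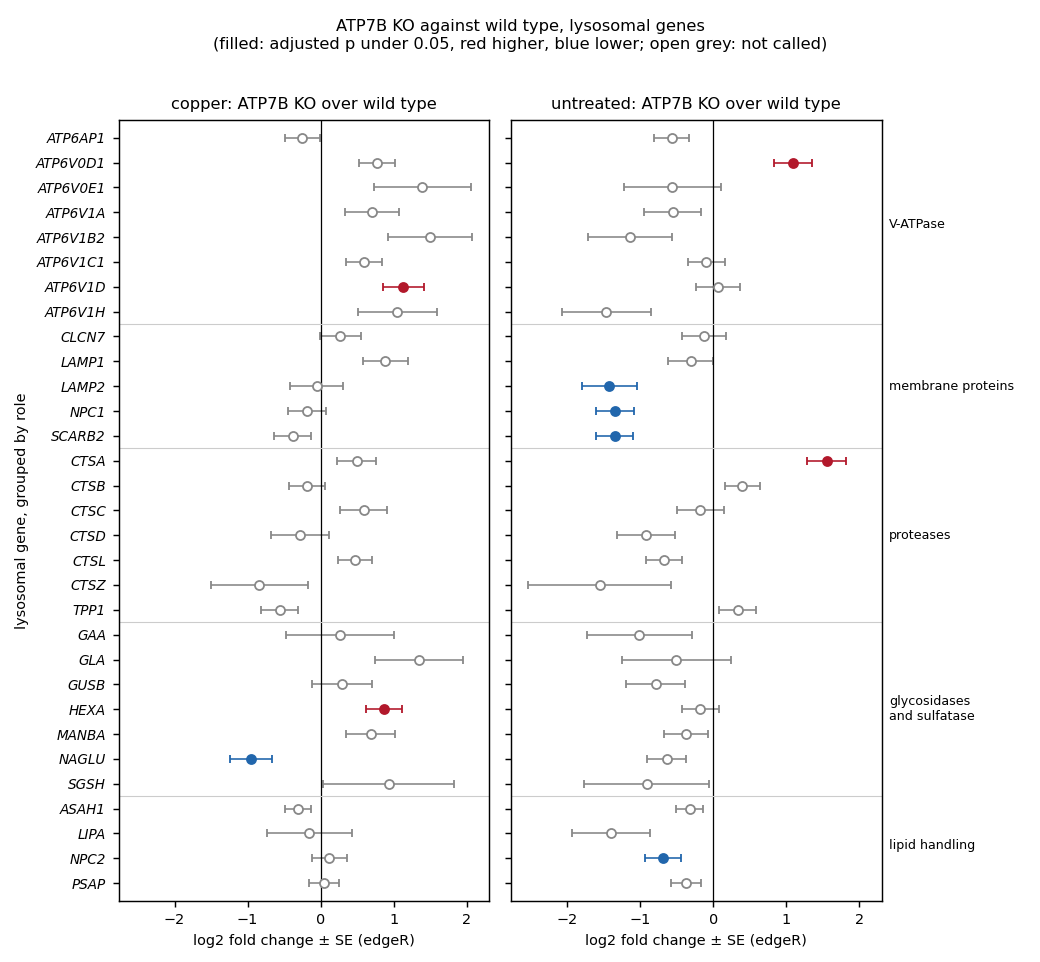
Log2 fold change of KO over wild type cells, with its standard error from edgeR, for the 31 tested lysosomal genes in copper (left) and untreated (right). Filled points passed an adjusted p of 0.05: 2 higher and 1 lower in copper, 2 higher and 4 lower untreated.

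**Figure D5:**
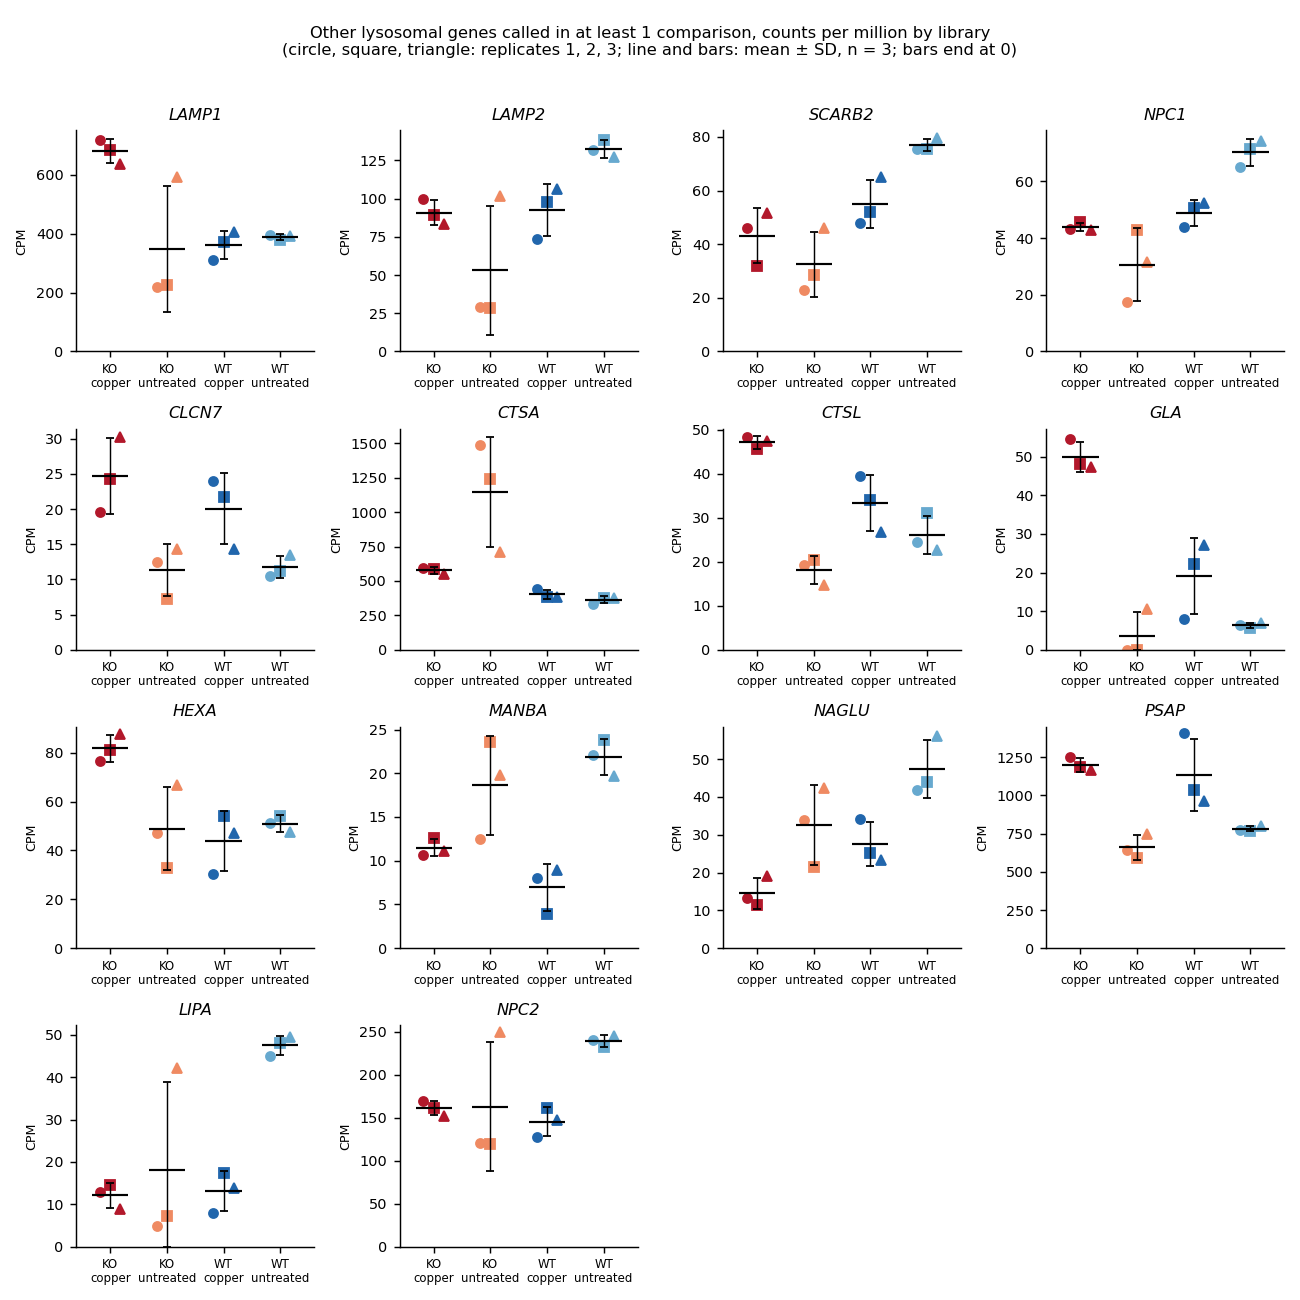
CPM in each of the 12 libraries, by group, of the 14 other lysosomal genes called in at least 1 comparison; symbols are libraries, and the line with bars is the mean ± SD of 3. GLA lies at 47.4 to 54.5 CPM in KO copper libraries and at 0, 0 and 10.7 CPM in KO untreated libraries, and for LIPA, KO untreated replicate 3 lies far above replicates 1 and 2.

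The other lysosomal genes were taken from lists of 25 matched hydrolases and cofactors, 20 membrane and sorting proteins and 15 V-ATPase subunits. Of these, 51 were tested. With copper in KO cells 6 rose and 7 fell, shares no higher than the 15.2% and 18.5% of all tested genes, and the median log2 fold change was -0.01. Of the 11 tested further V-ATPase subunits, 4 rose and 1 fell. ATP6V0A1, a large membrane subunit, was at 76.6, 88.3 and 92.0 CPM in KO copper libraries and 24.2, 25.6 and 40.6 CPM in KO untreated libraries (log2 fold change 1.60, adjusted p = 0.00034). ATP6V0B, a subunit of the proton-carrying ring, was at 314, 247 and 217 CPM in KO copper libraries and 67.2, 61.4 and 124 CPM in KO untreated libraries (1.74, adjusted p = 0.00073). SUMF1, which activates sulfatases in the endoplasmic reticulum, was at 23.5, 17.6 and 22.7 CPM in KO copper libraries and 189.8, 173 and 82.1 CPM in KO untreated libraries (-2.69, adjusted p = 0.00015). The cysteine protease CTSH was at 68.7, 61.1 and 73.7 CPM in KO copper libraries and 445, 343 and 187 CPM in KO untreated libraries (-2.16, adjusted p = 0.00037). These 4 calls stood in all 12 fits that left out 1 library, with log2 fold changes of 1.25, 1.25, -1.76 and -1.29 without the set-aside libraries.

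With copper in wild type cells, 3 of the 51 genes rose and 4 fell, against 8.23% and 6.68% of all tested genes. ATP6V0A1 was at 69.9, 73.6 and 60.8 CPM in wild type copper libraries and 35.6, 25.6 and 29.8 CPM in wild type untreated libraries (log2 fold change 1.19, adjusted p = 0.0036). ATP6V0B was at 224, 159 and 158 CPM in wild type copper libraries and 80.4, 93.2 and 80.0 CPM in wild type untreated libraries (1.12, adjusted p = 0.016), a call that ended without wild type copper replicate 1 or any one of the wild type untreated libraries (up to 0.075). ATP6V0E2, a second form of the small membrane subunit, moved the other way, at 26.2, 50.5 and 67.4 CPM in wild type copper libraries and 162, 168 and 164 CPM in wild type untreated libraries (-1.75, adjusted p = 0.0042). The sorting receptor SORT1 was at 33.6, 41.0 and 43.8 CPM in wild type copper libraries and 113, 98.2 and 107 CPM in wild type untreated libraries (-1.40, adjusted p = 0.00080). Between the lines in copper, 2 of the 51 were higher in KO cells and 1 was lower, against 5.77% and 8.03% of all tested genes. They were ACP2, an acid phosphatase (1.05, adjusted p = 0.0063), GNPTG, part of the enzyme that makes the mannose 6-phosphate tag (1.01, 0.037), and DPP7, a peptidase with 1, 1 and 3 counts in KO copper libraries and 13, 9 and 7 in wild type copper libraries (-2.71, 0.034). The GNPTG call ended in 9 of the 12 fits that left out 1 library (adjusted p up to 0.12) and the DPP7 call in 6 (up to 0.13), among them those without any one of the KO copper libraries. In untreated cells, 11 of the 51 were higher in KO cells and 4 were lower, against 17.9% and 14% of all tested genes. The named ones were ACP2 (1.08, adjusted p = 0.0033), OSTM1, the partner of CLCN7 (1.74, 0.0043), the mannose 6-phosphate receptor IGF2R (1.68, 0.0056) and SORT1 (-1.40, 0.00060). The IGF2R call ended without the set-aside libraries (0.60, adjusted p = 0.11).

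Of the factors that bind the CLEAR element, TFEB fell and TFE3 rose with copper in KO cells, and MITF had at most 1 count in any library. TFEB was at 0.712, 2.51 and 3.58 CPM in KO copper libraries and 18.7, 11.3 and 12.8 CPM in KO untreated libraries (log2 fold change -2.54 ± 0.51 SE, adjusted p = 0.0031). Wild type copper libraries had 16.5, 7.41 and 6.97 CPM of TFEB and wild type untreated libraries 10.02, 10.2 and 14.0 CPM, and it was not called there (-0.14, adjusted p = 0.86). The KO copper libraries had 2, 6 and 9 counts of TFEB, and in copper its level was lower in KO than in wild type cells (-2.20 ± 0.52 SE, adjusted p = 0.015). TFE3 was at 76.2, 78.3 and 76.4 CPM in KO copper libraries and 20.8, 38.9 and 44.9 CPM in KO untreated libraries (1.26 ± 0.26 SE, adjusted p = 0.0037). Wild type copper libraries had 50.7, 68.0 and 83.7 CPM of TFE3 and wild type untreated libraries 44.3, 45.2 and 41.6 CPM, without overlap and not called (0.65, adjusted p = 0.10). TFE3 was called there with DESeq2 (0.68, adjusted p = 0.040), on the wild type libraries alone (0.71, 0.027) and in 2 of the 12 fits that left out 1 library. With relative log expression factors, limma voom, a replicate block or no filter it was not called (adjusted p 0.083 to 0.23). Its log2 fold change there was larger, at 0.86, without the set-aside libraries, for which only effect sizes of TFEB and TFE3 are given. The difference of the copper effects was -2.40 ± 0.67 SE (adjusted p = 0.054) for TFEB and 0.61 (adjusted p = 0.25) for TFE3. Without the set-aside libraries these differences were -1.74 and 0.10. The calls of both genes with copper in KO cells stood in all 12 fits that left out 1 library, while that of TFEB between the lines in copper ended without KO copper replicate 1 or 2 or wild type copper replicate 1 (adjusted p up to 0.064). These are mRNA levels, whereas TFEB and TFE3 are known to be controlled mainly by phosphorylation and entry into the nucleus.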

How the data were processed

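Libraries were made from 100 ng of total RNA with a QuantSeq 3′ kit and read single-end for 75 bp from fragments of 300 bp, per the labels' protocols. STAR 2.3.0, HTSeq and the hg19 build are named in the submitters' processing notes; the sources used here do not give the annotation release, the strand setting or any filter. What the authors deposited are raw counts per gene, with no normalization by the authors. There are no molecular identifiers, so amplified copies cannot be told from separate molecules, and intervals cover counting error only. With 3 libraries per group, p-values rest on the spread between these libraries only. In fits of all groups, that spread was estimated over the groups together. P-values of comparisons without KO untreated libraries thus also rest on them. The median coefficient of variation over the 31 tested genes was 42.1% in KO untreated and 6.87% in wild type untreated libraries. For copper in wild type cells, 14.9% of tested genes were called in the fit of all 12 libraries, and 29.2% on the wild type libraries alone.

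Symbols came from gene name tables and GENCODE v29 (names and neighbours only). Members and lists were chosen with earlier results of these data known. edgeR 4.0.16 in R 4.3.3 was used: filterByExpr left 11051 genes, libraries were scaled by TMM, and 1 robust quasi-likelihood fit with 4 group means held all 12 libraries (biological coefficient of variation 29.1%). P-values were adjusted by Benjamini-Hochberg over the 11051 genes and called at 0.05, which "rose" and "fell" refer to. SE was taken as the size of that change over the root of its F statistic. Alternatives were relative log expression factors, no filter, DESeq2 1.42.0, limma 3.58.1 voom, a replicate block, only the groups compared, leaving out each library, and leaving out 3 libraries together (KO untreated replicates 1 and 2, wild type copper replicate 1), also chosen with earlier results known. The steps were also run on simulated counts with the same spread in all groups. That run does not cover groups of unequal spread, as found here.

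All members could be named, with those called in at least 1 comparison given in full; of the other lysosomal lists, up to 4 genes per comparison with the smallest adjusted p were named, besides TFEB, TFE3, MITF and ATP7B. LYZ, PLTP and the markers at 0 were named after their values were seen. Promoter windows are RefSeq's (GRCh38.p14), another build than the counts', and were used for sequence only.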

Additional observations from a re-analysis of the deposited data

Results flagged for a closer look

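Of the 51 tested genes of the other lysosomal lists, only ATP6V1G1 passed the threshold for a difference of copper effects between the lines. It was called higher, against 1.26% of all tested genes called higher and 3.67% called lower in that test. ATP6V1G1 is a V1 stator subunit of the further V-ATPase list and was flagged because it passed a test of the difference itself. The gene was at 408, 398 and 372 CPM in KO copper libraries and at 66.5, 74.7 and 217 CPM in KO untreated libraries. Wild type copper libraries had 97.1, 208 and 238 CPM, and wild type untreated libraries 232, 214 and 226 CPM. The difference of the log2 fold changes was 2.13 ± 0.56 SE (adjusted p = 0.049), and all KO copper libraries lay above the other 9. The call stood in 2 of the 12 fits that left out 1 library, those without KO untreated replicate 3 or wild type copper replicate 3, and ended in the other 10 (adjusted p up to 0.12); over all 12 the difference was 1.79 to 2.75. It also ended with limma voom (2.37, adjusted p = 0.055) and with a replicate block (2.36, 0.054). Without the 3 set-aside libraries the difference was 0.98 (adjusted p = 7.1e-05).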

How the results depend on the processing

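Counts of members called are given as higher and lower. Without a filter on low counts, copper in wild type cells gave 5 lower, KO against wild type gave 4 higher in copper and 8 lower untreated, and the difference of copper effects gave 6 higher. DESeq2 gave 5 higher for copper in wild type cells, 4 higher for KO against wild type in copper, and 4 higher and 1 lower for the difference. Limma voom gave 8 lower for KO against wild type untreated. Fitted on only the groups compared, the counts were 7 and 0 for copper in KO cells, 7 and 6 for copper in wild type cells, 10 higher for KO against wild type in copper and 2 lower untreated. Without the 3 set-aside libraries they were 16 and 4 for copper in KO cells, 9 and 10 for copper in wild type cells, 13 and 4 between the lines in copper, 4 and 6 between them untreated, and 5 higher for the difference. Leaving out 1 library at a time gave 8 to 19 higher and 0 to 4 lower for copper in KO cells, 0 to 7 higher and 1 to 7 lower for copper in wild type cells, 0 to 11 higher and 0 to 2 lower for KO against wild type in copper, 2 to 4 higher and 3 to 16 lower untreated, and 0 to 18 higher and 0 to 3 lower for the difference; the highest counts came without KO untreated replicate 3. The share of all tested genes called moved as well. It was 39.6% and 40.0% for copper in KO and wild type cells, 37.9% and 34.5% between the lines in copper and untreated, and 8.77% for the difference without the set-aside libraries, 17.9%, 29.2%, 26.5% and 13.2% on only the groups compared, and 58.1%, 33.1%, 31.2%, 59.0% and 51.5% without KO untreated replicate 3. With no filter it was 8.82%, 8.05%, 17.6% and 9.77% for the comparisons named there, with DESeq2 19.3%, 18.4% and 16.6%, and with limma voom 32.6%. The other member counts stayed within 1.5 times those in the report.

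Log2 fold changes of members changed sign in 87 cases over all alternatives, in 81 of which neither value passed the threshold. In the other 6 at least 1 of the values did. For copper in KO cells, LIPA ran from -1.01 to 1.07 over the fits that left out 1 library, and was 1.07 without KO untreated replicate 3. Without the 3 set-aside libraries, copper in KO cells gave 0.45 for CTSB (-0.19 with all libraries), -1.02 for GAA (0.19) and -0.45 for NPC2 (0.11), and KO against wild type untreated gave 0.41 for LAMP1 (-0.31) and 0.60 for ATP6V0E1 (-0.56). The causes were not tested. On TMM-scaled totals the summed level of the members in wild type untreated libraries was 4139 CPM, against 4066 CPM on plain totals. KO untreated libraries 1 to 3 were at 3965, 3433 and 4051 CPM on TMM-scaled totals, and at 4160, 3536 and 4581 CPM on plain totals. On TMM-scaled totals each lay below all wild type untreated libraries, at 4104, 4219 and 4095 CPM. On plain totals this did not hold. Wild type copper libraries moved up, to 5350, 4201 and 4211 CPM, and KO copper libraries were at 5591, 5244 and 4917 CPM.

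Same-numbered libraries of different groups deviated together (correlation over 0.1) in 2 of 18 pairs, from -0.22 to 0.61. Different-numbered ones did so in 12 of 36 pairs, from -0.64 to 0.41. The 2 same-numbered pairs, wild type copper with KO untreated replicate 3 (0.61) and replicate 1 (0.49), were the highest of all. A pairing by number is thus not shown across the groups, while these 2 pairs did deviate together. With the replicate number as a block, KO against wild type in copper gave 1 higher, and the other counts stayed within 1.5 times. KO untreated replicates 1 and 2 were also shallow, at 1443372 and 976658 counts, which limits what can be said of members near or below 3 CPM there. DESeq2 gave no adjusted p for ATP6V0E1, so its counts of members called leave this gene out.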
